A study of Mus musculus with 8 samples.

Results

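Multipotent progenitors with Flt3 and Cd34 and without Dntt were examined in the bone marrow of 8 wild-type mice across 4 ages. Members were cells with 1000 or more UMIs (unique molecular identifiers, each counting 1 captured RNA molecule) and under 10% of UMIs in mt- genes. They were chosen by measured UMIs, with at least 1 UMI of Flt3 and of Cd34 and none of Dntt, Il7r, Procr, Siglech, Ly86 or Cebpe. By this rule 2624 of 46159 kept cells, or 5.68%, were members. Each library held Lineage- c-Kit+ bone marrow cells of 1 mouse, captured by droplet single-cell RNA sequencing. There was 1 male and 1 female at each age: young (14 weeks), middle-aged (50 weeks), old (78 weeks for the male, 79 for the female) and very old (95 weeks). All mice were wild-type, and the labels name neither a treatment nor a strain for them. The study's methods name C57BL/6j females, and do not tie that strain to these 8 mice of both sexes. Library names put the very old mice in a separate series from the other 6 mice, so that series and very old age cannot be told apart. The mouse was the replicate throughout.

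Multipotent progenitors lie downstream of haematopoietic stem cells and have lost long-term self-renewal while keeping the capacity to form several blood lineages. Flt3 encodes a receptor tyrosine kinase that appears as cells leave the stem cell pool, and Cd34 a sialomucin carried by mouse progenitors. Dntt, the template-independent DNA polymerase that diversifies antigen receptor junctions, marks lymphoid priming within the Flt3-positive compartment. Il7r marks lymphoid commitment, Procr stem cells, Siglech plasmacytoid dendritic cells, and Ly86 and Cebpe myeloid commitment.

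The libraries held 83062003 to 150135029 UMIs and 4912 to 7265 kept cells, and 10046 cells were left out for their mt- share. The members summed to 3904992 to 6916007 UMIs per mouse. Between 6 and 27 barcodes were shared within each of the 28 pairs of libraries, and no doublets were removed. The median member held 13962.5 UMIs in the young male and 14098 in the young female, 18433.5 and 18049 in the middle-aged male and female, 10687 and 11238 in the old, and 16004 and 11996 in the very old. Members were deepest in both middle-aged mice. Since depth sets which genes are found in a cell, each count was repeated with every cell thinned to 5000 UMIs before the rule. This gave 1858 members. They were chosen anew from all kept cells deep enough, so cells that lost their Dntt, Procr, Ly86 or Cebpe UMIs could enter. Thinned results thus differ from the main ones in which cells were members, and not only in depth. Of the original members, 121 were too shallow to be thinned.

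The zero rules decided much of the membership. Of 9083 cells with Flt3 and Cd34, 1832 were left out by Dntt alone, 1750 by Ly86 alone, 671 by Procr alone and 555 by Cebpe alone, and 1647 broke several rules at once. Il7r alone left out 3 cells and Siglech alone 1. Just inside the rule, 1577 members held a single UMI of Flt3 or Cd34 and 176 of both. Just outside it, 487 of the cells left out by Dntt alone held a single Dntt UMI. The 1832 cells that broke only the Dntt rule are called Dntt-positive cells and served as the population most like the members.

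The label was examined against markers that the rule did not use, as the share of cells with a UMI after thinning. These shares are medians over the 8 mice and a description without a test, since UMIs of the same cells chose them. Hlf, a stem cell transcription factor, was found in 41.5% of members, against 71.3% of Procr-positive cells (no Flt3, no Dntt), 6.78% of Mpo-high cells (5 or more Mpo UMIs, no Flt3, no Cebpe) and 1.94% of erythroid cells (Klf1 and 3 or more Car1 UMIs). Mecom, another stem cell regulator, was found in 15.5% of members and 46.1% of Procr-positive cells. Cd48, a surface protein gained as stem cells become progenitors, was found in 46.3% of members and 14.1% of Procr-positive cells. By Hlf and Mecom the members lay between the Procr-positive and the Mpo-high cells.

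Lymphoid genes were found in fewer members than Dntt-positive cells. Satb1, a chromatin organiser of lymphoid progenitors, was found in 26.8% of members and 55.8% of Dntt-positive cells. Ighm, the immunoglobulin heavy chain gene, was found in 27.4% and 68.2%, and Notch1, the receptor that instructs T cell fate, in 11.1% and 27.8%. Rag1, which cuts antigen receptor genes, had a median of 0% in members.

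Granule protein genes differed in how many members held them. Mpo, the myeloperoxidase of primary granules, was found in 76.3% of thinned members (55.9% to 81.3% across mice), 64.9% of Dntt-positive cells and 26.0% of erythroid cells, which should lack it. Before thinning the shares were 85.1% of members and 70.5% of erythroid cells, at median depths per mouse of 10687 to 18433.5 UMIs in members and 16542.5 to 36079 in erythroid cells. Ctsg, cathepsin G, was found in 66.8% of thinned members and 19.4% of erythroid cells, and Elane, neutrophil elastase, in 32.1% and 15.1%. Prtn3, another granulocyte-monocyte marker, was found in 94.9% to 98.9% of members across mice before thinning. Car1, an erythroid carbonic anhydrase, was found in 22.4% of members, 27.6% of Dntt-positive, 30.8% of Procr-positive and 18.3% of Mpo-high cells, so that members lay within the range of the other non-erythroid populations. The erythroid regulators Klf1 and Gata1 were found in 2.82% and 2.78% of members.

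**Figure D1:**
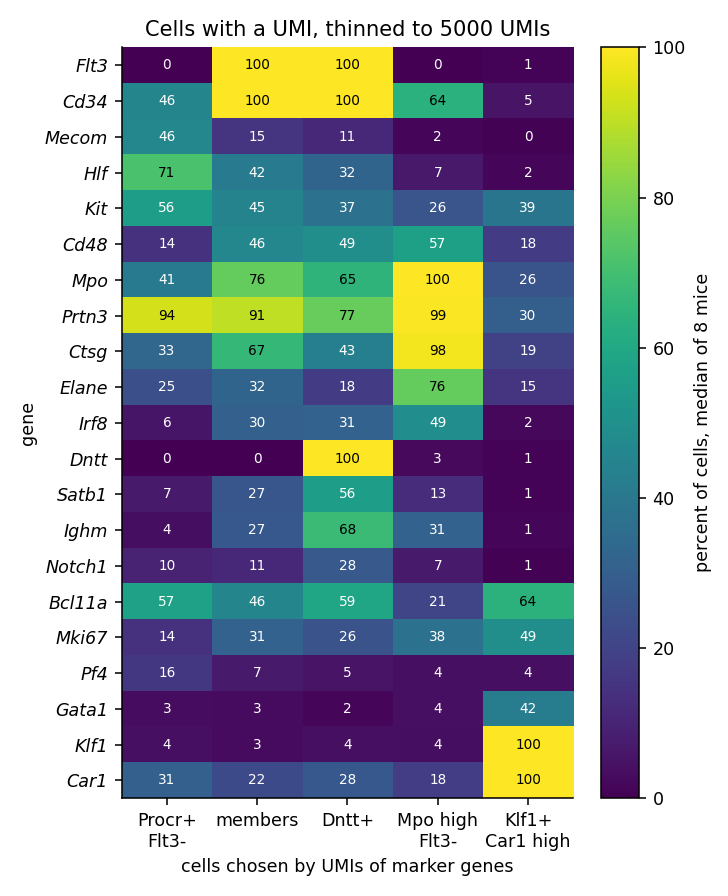
Share of cells with a UMI of each gene (rows) in 5 populations (columns) after thinning every cell to 5000 UMIs, as the median of 8 mice in percent. In members Hlf was found in 41.5% and Mpo in 76.3%, and the genes at 0 or 100% in a population include those that chose its cells.

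Members differed among themselves and between mice. After thinning, 18.7% to 44.1% of members held no Mpo and 25.7% to 48.6% held 5 or more Mpo UMIs. The latter is the count that chose the Mpo-high cells, so the name multipotent progenitors also covers cells with many granule transcripts. The middle-aged male (44.1%) and the very old male (42.7%) had the most members without Mpo, and in the other 6 mice the share was 18.7% to 26.3%. Irf8, a regulator of monocyte and dendritic fate, was absent from 89.1% of members of the middle-aged male and from 81.9% of the very old male, against 61.6% to 71.4% in the other mice. Mpo and Hlf were both detected in a median of 23.8% of members (14.0% to 32.2%), Mpo and Irf8 in 28.9%, Mpo and Satb1 in 19.8%, and Hlf and Satb1 in 11.8%. These shares describe detection, were not compared with those expected from each gene alone, and Mpo was also found in 26.0% of erythroid cells.

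The share of kept cells that were members was 7.24% in the young male (95% exact binomial interval 6.55 to 7.99, counting error only) and 5.15% in the young female (4.65 to 5.69). It was 7.14% and 5.80% in the middle-aged male and female, 5.69% and 5.62% in the old, and 4.82% and 4.75% in the very old. Both very old mice had the lowest shares, but the old and very old mice together overlapped the young (5.22% ± 0.504, SD, n = 4, against 6.20% ± 1.48, n = 2; exact two-sided permutation p = 0.4). After thinning the shares were 6.55% and 4.15% in the young, 4.32% and 4.07% in the middle-aged, 5.08% and 4.93% in the old, and 3.24% and 3.22% in the very old. Without the young male the difference of -0.977 percentage points became 0.0689. The smallest p that this test of 4 against 2 mice allows is 0.133, so that no single value per mouse could pass a threshold of 0.05.

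Other cells of the libraries shifted in share too. Erythroid cells made up 27.0% and 34.5% of kept cells in the young male and female, 18.9% and 25.3% in the middle-aged, 15.9% and 17.1% in the old, and 35.4% and 28.3% in the very old. Procr-positive cells made up 2.29% and 1.95% in the young and 4.39% to 10.6% in the 6 other mice. A share of kept cells therefore cannot separate fewer members from more of another cell.

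Members per Dntt-positive cell do not depend on those other cells. The ratio was 1.35 and 1.31 in the young male and female, 1.33 and 1.29 in the middle-aged, 1.59 and 1.58 in the old, and 1.34 and 1.82 in the very old. The old and very old mice averaged 1.58 ± 0.194 (SD, n = 4) and the young 1.33 ± 0.0290 (n = 2), with the very old male inside the young range (exact two-sided permutation p = 0.267). Among cells with 3000 or more UMIs the groups did not overlap (1.34 to 1.79 in older mice, all above the young, p = 0.133, the smallest this exact test allows), nor did they without the very old male (a difference of 0.330 in place of 0.25) or without both very old mice. After thinning the groups overlapped, at 1.73 to 2.47 in older mice and 1.77 to 1.80 in the young (exact two-sided permutation p = 0.667). The old male and the very old male were then not above both young mice. The difference was 0.0237 with Flt3 and Cd34 at 2 or more UMIs and 0.0831 without members with lineage UMIs, and it turned to -0.10 with cells under 5% mt- UMIs. An age difference in the balance of members and Dntt-positive cells was not established with these mice.

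**Figure D2:**
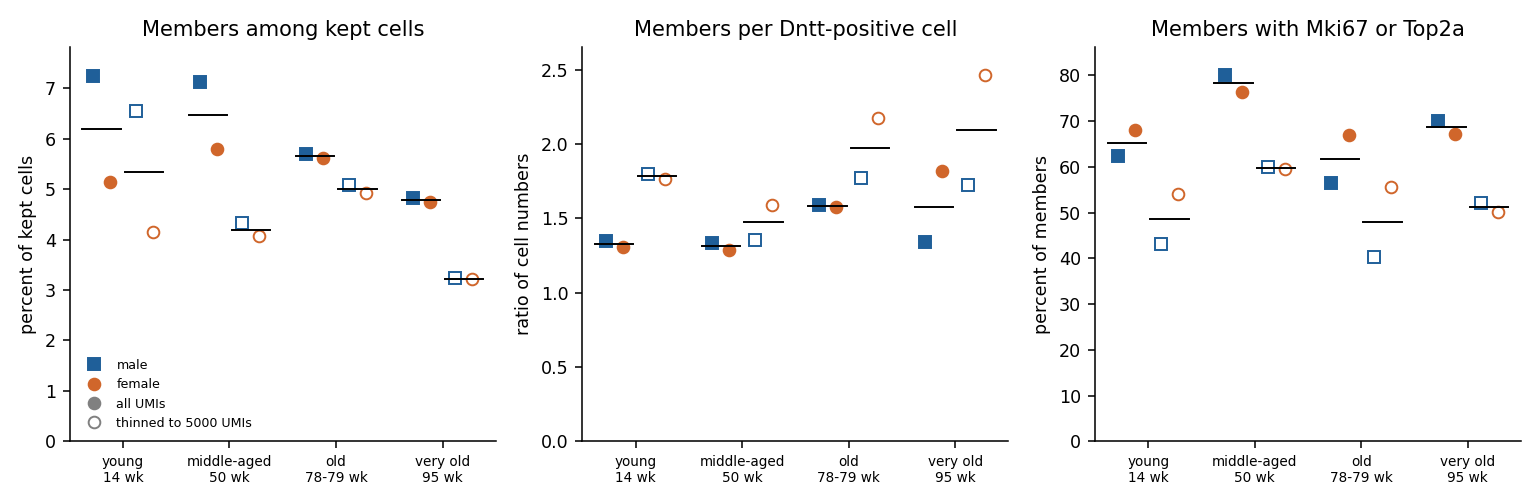
Share of kept cells that were members (%), members per Dntt-positive cell, and share of members with a Mki67 or Top2a UMI (%), by age. Each point is 1 mouse (squares male, circles female), bars are means of 2 mice, filled points use all UMIs and open points cells thinned to 5000 UMIs; the last of these shares was 80.1% and 76.5% in the middle-aged mice and 56.6% to 70.1% in the others.

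Transcripts of proliferation genes were detected in many members, from which no share of cycling cells is read. Mki67, a marker of proliferating cells, or Top2a, the topoisomerase of S and G2 phase, was found in 62.4% (male) and 68.1% (female) of young members, 80.1% and 76.5% of the middle-aged, 56.6% and 67.0% of the old, and 70.1% and 67.2% of the very old. Thinned shares were 43.1% and 54.1%, 59.9% and 59.4%, 40.3% and 55.6%, and 52.0% and 50.2% in the same order. Among the other thinned cells they were 14.6% to 38.5% in Procr-positive, 36.1% to 60.4% in Dntt-positive and 58.4% to 66.7% in Mpo-high cells. The middle-aged mice were highest on both scales and also had the deepest members. Old and very old mice did not separate from young (65.2% ± 5.95, SD, n = 4, against 65.3% ± 4.03, n = 2; exact two-sided permutation p = 1).

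Expression was compared on the UMIs of members summed per mouse, given as CPM (UMI counts relative to the mouse's total over members, after TMM scaling), with edgeR's quasi-likelihood test across 11250 genes that the rule did not use. Between old and very old mice together and young mice, 23 genes (0.204% of those tested) passed an adjusted p of 0.05, 15 higher (0.133%) and 8 lower (0.0711%). At an unadjusted p under 0.05 there were 772. In the same model, 5 genes were called for old against young (0.0444%) and 20 for very old against young (0.178%). The 4 older mice lay wholly above the young in 6.44% of genes and wholly below in 6.31%. Leaving out the young male left 0 genes called (506 at an unadjusted p under 0.05), and leaving out the young female left 4. The count was 10 without the old male, 14 without the old female, 87 without the very old male and 46 without either middle-aged mouse. Where 1 young mouse was left, it was assumed to vary like the other groups.

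Hmga2, an architectural chromatin protein known for its high level in fetal stem cells, fell with age (chr10:120361275-120476469, minus strand, GRCm38). It was expressed below the level set for naming and was chosen after its values were seen. It reached 26.2 CPM in the young male and 18.8 in the young female, 7.66 and 8.27 in the middle-aged male and female, 3.39 and 6.79 in the old, and 8.72 and 6.30 in the very old. Every mouse past 14 weeks lay below both young mice. The difference between older and young was -1.84 ± 0.221 (log2, SE; adjusted p = 0.0114), and between middle-aged and young -1.50 ± 0.243 (adjusted p = 0.0253).

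Hmga2 also fell in share of members with a UMI, from 27.0% and 21.98% in the young to 12.4% and 12.3% in the middle-aged, 4.04% and 7.96% in the old and 10.4% and 5.80% in the very old. After thinning its level was 23.03 and 18.6 CPM (not TMM-scaled, hence unscaled) in the young and 3.23 to 10.9 in the 6 other mice, so the groups stayed apart at equal depth (-1.69, adjusted p = 0.0429). It kept its call in 20 of 22 alternatives. It lost it without the young male (-1.54, adjusted p = 0.365) and with age in weeks as a slope. In Dntt-positive cells of the same mice the difference between older and young was -2.12, and the age effects of both populations were not shown to differ (interaction adjusted p = 0.878).

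Tnfsf13, which encodes the cytokine APRIL of B and plasma cells, was higher in older members (chr11:69682846-69685784, minus strand). Its levels were 9.79 and 18.5 CPM in the young male and female, 31.3 and 40.8 in the middle-aged, 32.8 and 29.3 in the old, and 36.5 and 43.4 in the very old. All 6 mice past 14 weeks lay above both young mice. The difference was 1.33 ± 0.174 (adjusted p = 0.0148) for old and very old mice and 1.36 ± 0.189 (adjusted p = 0.0110) for middle-aged mice. It missed the threshold in 6 of 22 alternatives: without the young male (1.01, adjusted p = 0.365), after thinning (1.08, 0.0504), without the sex term (0.0565), with age in weeks as a slope (0.801), and without members holding lineage UMIs (0.237) or Mki67 or Top2a UMIs (0.0534). The antisense gene Tnfsf13os overlaps it on the plus strand (chr11:69682138-69691141). Tnfsf13os moved the same way (1.52 ± 0.263, adjusted p = 0.0392), and whether the levels of this gene pair are independent was not tested.

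Ctsg was the granule protein gene called as higher in older members. It (chr14:56099881-56102574, minus strand) reached 875 and 804 CPM in the young male and female, 858 and 1029 in the middle-aged, 1240 and 1039 in the old, and 1335 and 1334 in the very old. All 4 older mice exceeded the young, with a difference of 0.55 ± 0.0953 (adjusted p = 0.0392). The call was lost without either young mouse (adjusted p = 0.663 without the male and 0.761 without the female), without the old male (0.179) and after thinning (0.29, adjusted p = 0.746), and in 9 of 22 alternatives in all.

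Elane and Mpo were above both young mice in all 4 older mice before thinning but missed the threshold. Such an order was found in 6.44% of all genes. Elane was at 145 CPM in both young mice, 126 and 214 in the middle-aged, 548 and 284 in the old, and 220 and 370 in the very old (1.27 ± 0.258, adjusted p = 0.0903). It passed the threshold under 9 of 21 alternatives, among them without either middle-aged mouse and without the old female, and missed it under the other 12. Mpo was at 1127 and 1202 in the young, 1016 and 1357 in the middle-aged, 1548 and 1567 in the old, and 1261 and 1533 in the very old (0.34 ± 0.0865, adjusted p = 0.262). After thinning the groups overlapped for both genes. Mpo was then at 1095 and 1404 unscaled CPM in the young male and female and 1051 to 1551 in the older mice. Elane was then at 224 and 284 in the young and 234 to 475 in the older mice, with the very old male lowest among these for both. Of 22 tested genes of the granulocyte-monocyte list 16 were positive and 6 negative, Ctsg alone was called (0.133% of all genes were called higher), and the median was 0.23 against 0.00 over all genes. The list's summed level was 5771 and 5790 CPM in the young and 6513 to 8209 in the 6 other mice.

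Several further genes differed between old and very old and young members. Cenpv, a centromere protein, was at 56.5 and 56.9 CPM in the young, 110 and 107 in the middle-aged, 73.5 and 74.7 in the old, and 116 and 85.2 in the very old (0.61 ± 0.110, adjusted p = 0.0451), and was highest in the very old and middle-aged males. Otos, otospiralin, rose from 32.4 and 28.5 to 44.3 to 56.4 CPM (0.69 ± 0.122, adjusted p = 0.0402). Hsph1, a heat shock co-chaperone, fell from 56.0 and 66.0 to 27.8 to 41.9 CPM (-0.73 ± 0.108, adjusted p = 0.0208) and did not fall in the middle-aged (61.2 and 79.2). Its list of 11 heat shock genes had 8 negative differences, a median of -0.20 and no other call, against 0.0711% of all genes called lower. Cenpv, Otos and Hsph1 lost their calls without either young mouse, Cenpv also without either old mouse or the very old male, and Otos also without the old or the very old female. Over all 22 alternatives, other settings included, Otos lost its call in 13 and Cenpv and Hsph1 in 10 each.

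Pf4, platelet factor 4 of megakaryocytes, had the largest fold change among the genes that the naming rule gave for older against young, and a few cells carried it. Its levels were 21.98 and 19.2 CPM in the young male and female, 16.6 and 26.4 in the middle-aged, 55.8 and 139 in the old, and 124 and 50.9 in the very old (2.17 ± 0.379, adjusted p = 0.0392). The 5 members with most Pf4 held 30.7% and 33.9% of its UMIs in the young and 71.1% to 85.4% in the old and very old. Without these 5 members per mouse the levels were 15.6 and 12.97 unscaled CPM in the young, 9.83 and 8.96 in the middle-aged, 9.73 and 20.6 in the old, and 29.2 and 13.9 in the very old, and the groups overlapped.

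Few members held 5 or more Pf4 UMIs: 2 and 1 in the young male and female, 1 and 2 in the middle-aged, 4 and 5 in the old, and 11 and 2 in the very old. Among all kept cells, those with 5 or more Pf4 UMIs made up 4.29% and 4.15% in the young, 4.49% and 5.66% in the middle-aged, 3.78% and 6.81% in the old, and 6.90% and 5.27% in the very old. The old female and the very old male, highest in Pf4 among members, were thus also highest in this share, whose part in the result was not tested. The members with 5 or more Pf4 UMIs had a median UMI count of 0.834 to 2.88 times that of all members of the mouse. After thinning the Pf4 difference was 0.01 (adjusted p = 0.997), and it lost its call without either young mouse and without the old female (1.64, adjusted p = 0.0538). The megakaryocyte list had 13 of 15 positive differences and a median of 0.77, with Pf4 its only call, against 0.133% of all genes called higher. Without the 5% of members with most UMIs Pf4 kept its call (1.69, adjusted p = 0.00793), and it lost it in 9 of 21 alternatives in all.

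The genes of the stem cell lists called for older against young, Nupr1, Plscr2 and Clec1a, rested on few UMIs in members. Each passed the filter on low counts only through mice past 14 weeks, since the young held too few UMIs. A filter met only where these genes are high thus let them into the test. Without that filter 76 genes were called higher and 83 lower, in place of 15 and 8. Of 26 tested genes of the stem cell ageing list, Nupr1 and Plscr2 passed the test (0.204% of all genes did), 19 were positive and the median was 0.42. Nupr1, a stress-response chromatin factor, gave 3 UMIs in all members of the male and 5 in those of the female at 14 weeks. It gave 87 and 25 in the middle-aged, where it was also called, 42 and 4 in the old and 54 and 22 in the very old, so that the old female was close to the young and the middle-aged male highest. Plscr2, a phospholipid scramblase, gave 3 and 4 UMIs in the young, 22 and 14 in the middle-aged, 16 and 24 in the old and 21 and 39 in the very old. Clec1a, a C-type lectin of the stem cell list, gave 1 and 4 UMIs in the young, 32 and 9 in the middle-aged, 30 and 22 in the old and 23 and 18 in the very old. Procr-positive cells, in which Nupr1 was found in a median of 31.5% of thinned cells against 2.26% of members, were more numerous in the older libraries, and their part in these 3 genes was not tested.

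**Figure D3:**
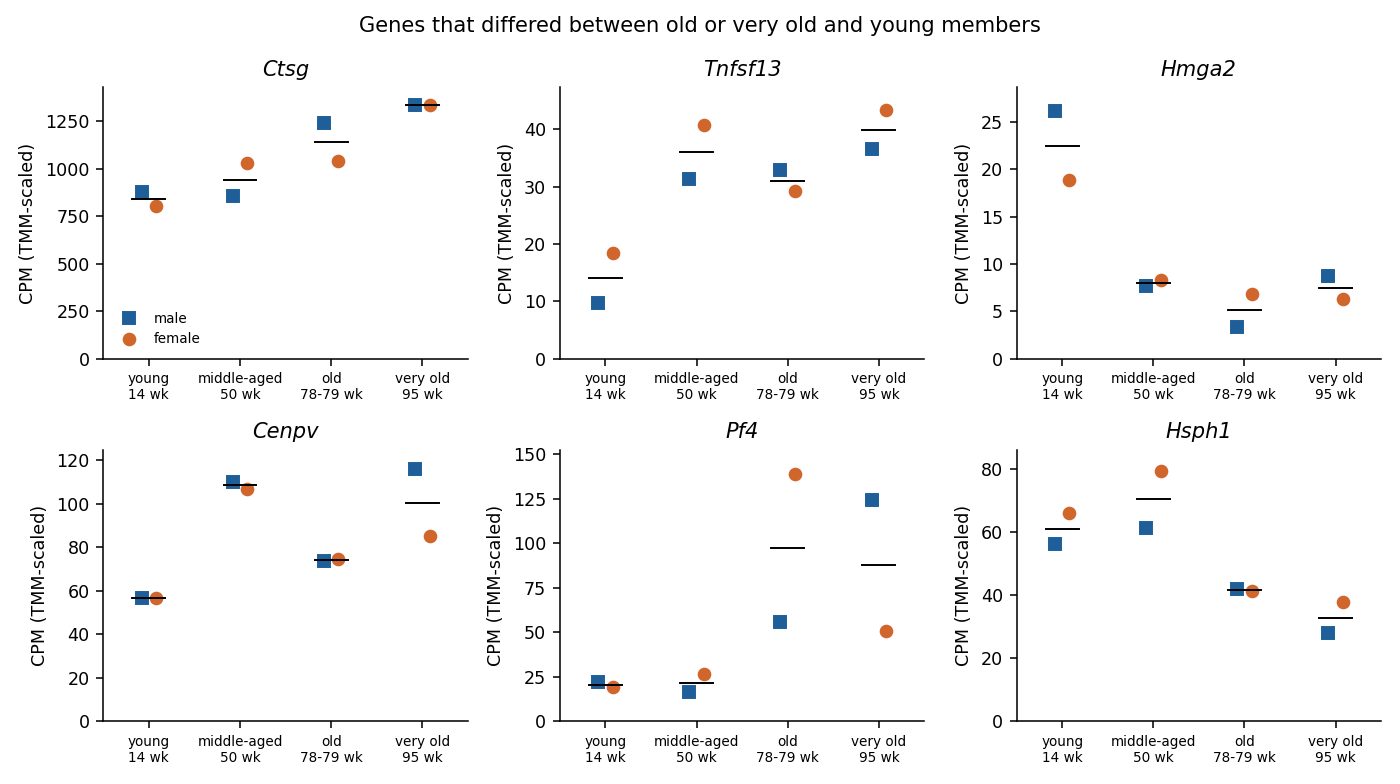
Level of 6 genes in members (TMM-scaled CPM, axes from 0) by age; each point is 1 mouse (squares male, circles female) and bars are means of 2 mice. Hmga2 lay between 3.39 and 8.72 in all mice past 14 weeks, below 18.8 and 26.2 in the young, while Pf4 spread from 50.9 to 139 in the old and very old.

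Between middle-aged and young members 63 genes were called (0.56%), 36 higher (0.32%) and 27 lower (0.24%), and 1735 had an unadjusted p under 0.05. DESeq2 called 29 higher and 4 lower, of which 12 were among the 63. After thinning 61 genes were called, of which 22 were among the 63. The middle-aged mice lay above both young in 23.2% of genes and below in 23.5%. The count fell to 0 without the young male (718 at an unadjusted p under 0.05), to 12 without the young female and to 8 without the middle-aged male. Ighm and Tnfsf13 lost their calls, among single mice left out, only without the young male (adjusted p = 0.154 and 0.371), and Ltb, Ifitm1, Vldlr, Serpina3g, Blvrb, Car2 and Tns1 without each of these 3 mice in turn. Pim1 lost its call without either young mouse (adjusted p = 0.542 without the male and 0.230 without the female). The count was 326 without the middle-aged female, 111 without the very old male and 135 without the very old female.

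Ighm and Ltb, genes of lymphoid cells, fell in middle-aged members. Ighm was at 63.4 and 60.7 CPM in the young male and female, 28.9 and 30.0 in the middle-aged, 70.6 and 71.4 in the old, and 41.4 and 53.7 in the very old. The middle-aged mice lay lowest and the old highest, and the middle-aged difference was -1.08 ± 0.126 (adjusted p = 0.00825). Ltb, a lymphotoxin subunit, fell from 70.6 and 56.9 to 27.6 and 19.98 CPM (-1.41 ± 0.259, adjusted p = 0.0360) and was at 67.7 and 59.5 in the old. Of 14 tested lymphoid priming genes 13 were negative, with a median of -0.38 and Ighm, Lsp1 and Cnn3 called, against 0.24% of all genes called lower.

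Other genes rose in the middle-aged mice. Ifitm1, an interferon-induced membrane protein, was at 242 and 292 CPM in the young, 1036 and 576 in the middle-aged, 525 and 349 in the old, and 292 and 579 in the very old (1.58 ± 0.295, adjusted p = 0.0360). Of 25 tested interferon response genes 11 were positive and 14 negative (median -0.11), and Ifitm1 alone was called, against 0.32% of all genes called higher. Pim1, a survival kinase induced by cytokines, rose from 120 and 156 to 219 and 371 CPM (1.07 ± 0.189), Vldlr, a lipoprotein receptor, from 11.9 and 15.0 to 37.1 and 28.1 (1.28 ± 0.222), and Serpina3g, a protease inhibitor, from 69.3 and 60.5 to 156 and 107 (1.01 ± 0.140). Among heat shock genes 10 of 11 were positive (median 0.29), with Hsp90aa1 and Hspd1 called (0.32% of all genes were called higher). Among S phase genes 26 of 28 were positive (median 0.22) and none was called, and these mice also had the highest shares of members with Mki67 or Top2a and the highest depth. Tns1, a focal adhesion protein, fell from 25.8 and 22.2 to 12.7 and 13.8 CPM (-0.86 ± 0.162).

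Erythroid genes varied most between libraries. The list of 15 genes summed to 1630 and 1236 CPM in members of young mice, 586 and 839 in the middle-aged, 682 and 665 in the old, and 1646 and 863 in the very old. All 15 were negative in the middle-aged (median -1.09), where Blvrb, a biliverdin reductase (-1.22 ± 0.221, adjusted p = 0.0360), and Car2, a carbonic anhydrase (-0.94 ± 0.165, adjusted p = 0.0335), were called, against 0.24% of all genes called lower. Blvrb lost its call in 5 of 13 alternatives and Car2 in 4. After thinning Blvrb was at 65.1 and 65.2 unscaled CPM in the young male and female and 55.4 and 28.9 in the middle-aged. All 15 were positive in very old against old (median 1.26, none called), and 13 of 15 were negative in older against young (median -0.80, none called).

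Erythroid cells made up 27.0% and 34.5% of kept cells in the young male and female, 18.9% and 25.3% in the middle-aged, 15.9% and 17.1% in the old, and 35.4% and 28.3% in the very old. In Mpo-high cells of the same libraries the erythroid list summed to 1724 and 2352 unscaled CPM in the young male and female, 458 and 1251 in the middle-aged, 957 and 915 in the old, and 730 and 597 in the very old. In Dntt-positive cells it summed to 763 and 765 in the young, 472 and 610 in the middle-aged, 629 and 575 in the old, and 1122 and 729 in the very old. The part of free RNA or of mixed droplets in the erythroid values was not tested.

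Between very old and old members, 19 genes were called (0.169%), 9 higher (0.08%) and 10 lower (0.0889%), with 1544 at an unadjusted p under 0.05. DESeq2 called 41 higher and 4 lower, of which 6 were among the 19. The very old lay above the old in 21.3% of genes and below in 22.2%. This contrast is also the contrast of library series. The count was 4 without the old male, 29 without the old female, 4 without the very old male and 143 without the very old female. It was 11 without the young female and 128 and 130 without the middle-aged male and female. Jun kept its call without any 1 mouse, and Jund lost it without the old male (adjusted p = 0.0602).

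Jun and Jund, immediate early genes, were lower in very old than in old members. Jun, a subunit of the AP-1 transcription factor, was at 27.4 and 49.7 CPM in the young male and female, 37.4 and 50.6 in the middle-aged, 102 and 61.3 in the old, and 7.91 and 14.2 in the very old (-2.92 ± 0.325, adjusted p = 0.00215). The old were highest and the very old lowest of all 8 mice. Jund, another AP-1 subunit, fell from 104 and 74.9 to 40.1 and 35.0 (-1.24 ± 0.148, adjusted p = 0.00247). All 15 genes of the list were negative (median -0.43). In Procr-positive cells the list's summed level was 1008 and 699 unscaled CPM in the old and 460 and 411 in the very old.

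Ube2c rose in very old against old members and genes of cell division shared its sign. All 26 G2/M genes were positive (median 0.48), with Ube2c called (0.08% of all genes were called higher). Of the 26, 23 lay above the old without overlap (21.3% of all genes did). In members the list summed to 3476 and 4190 unscaled CPM in the young male and female, 2993 and 3640 in the old, and 4825 and 4020 in the very old, which overlapped the young. In Dntt-positive cells it summed to 2918 and 3572 in the old and 4058 and 4893 in the very old. Ube2c, the ubiquitin-conjugating enzyme of mitotic exit, was at 124 and 139 CPM in the young, 106 and 130 in the middle-aged, 100 and 97.4 in the old, and 229 and 164 in the very old (0.99 ± 0.151, adjusted p = 0.0143). Its adjusted p was 0.212 without the old male, 0.0750 without the old female, 0.199 without the very old male, 0.0520 without the young female and 0.505 after thinning, where the difference was 0.61. Rbm15, an RNA-binding protein, rose from 18.8 and 16.9 to 41.4 and 33.4 (1.07 ± 0.153, adjusted p = 0.0123), and Neat1, a nuclear long non-coding RNA, fell from 61.7 and 64.1 to 32.2 and 35.9 (-0.88 ± 0.122, adjusted p = 0.0109). Both lost their calls without the old male, without the very old male and after thinning, and Rbm15 also without the old female (adjusted p = 0.0563). S100a8, an alarmin of neutrophils, was the only granulocyte-monocyte gene called (13.8 and 8.89 CPM in the old, 1.62 and 0.700 in the very old), and 18 of 22 genes of that list were negative. S100a8 gave 3 to 82 UMIs per mouse in members, so its call rests on few UMIs. Of all genes 0.0889% were called lower.

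**Figure D4:**
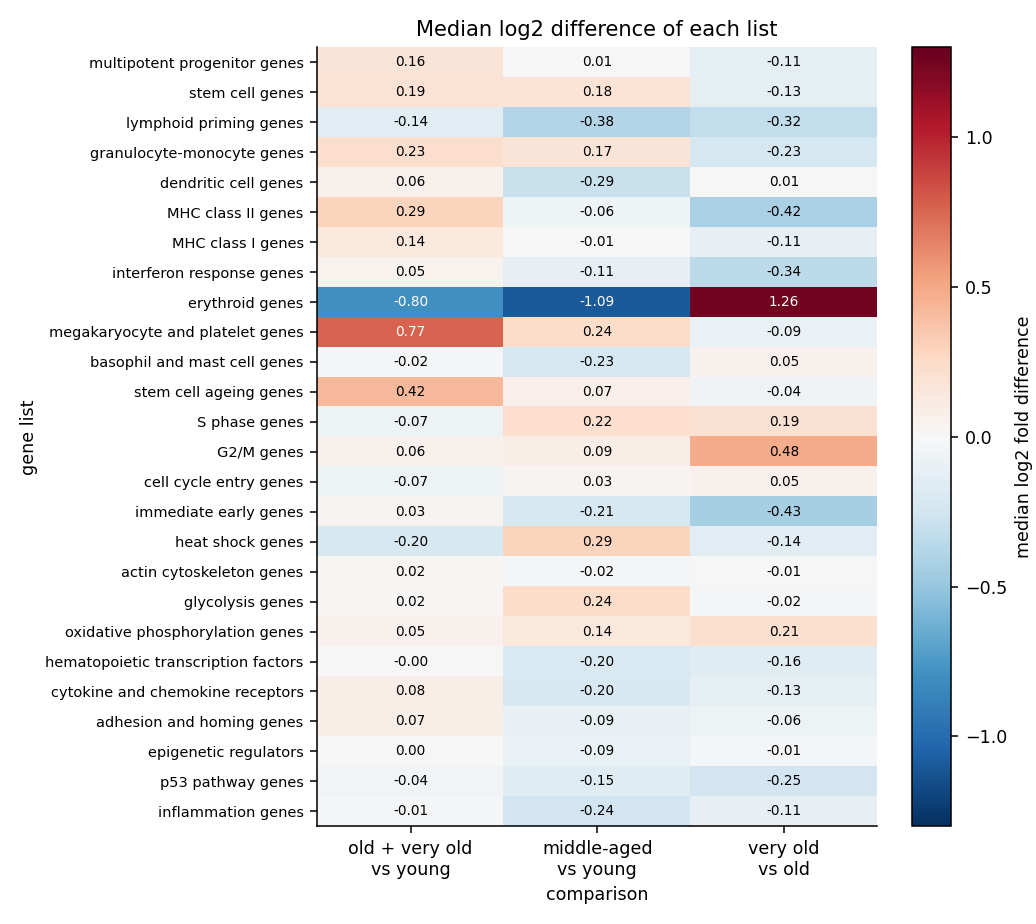
Median log2 difference of each of 26 gene lists (rows) in 3 comparisons of members (columns), coloured by size and direction. Erythroid genes ran from -1.09 in middle-aged against young to 1.26 in very old against old, and G2/M genes reached 0.48 in very old against old.

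Between males and females 20 genes were called (0.178%), 8 higher in males (0.0711%) and 12 lower (0.107%), among them X- and Y-linked genes that check the labels. Xist, the RNA of the inactive X chromosome, was at 1519 to 2079 CPM in females and 0 to 0.321 in males, and Eif2s3y, a Y-linked initiation factor, was at 41.6 to 62.1 in males and 0 in females. Myl10, an autosomal myosin light chain gene, was at 9.64 to 15.2 CPM in males and 70.5 to 175 in females (-3.01 ± 0.167, adjusted p = 1.59e-07), with no overlap at any age. Selp, P-selectin, was higher in the female at each age, at 5.46 against 11.3 CPM in the young, 12.6 against 24.3 in the middle-aged, 9.90 against 19.4 in the old and 7.30 against 27.5 in the very old (-1.21 ± 0.165, adjusted p = 0.00573; 0.0508 without the young female). The count was 10 without the young male and 9 without the young female.

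Whether age acted alike on members and Dntt-positive cells was tested as an interaction within mice. Of 11253 genes 29 differed (0.258%), 8 with a more positive age effect in members (0.0711%) and 21 with a more negative one (0.187%). After thinning no gene was called (408 at an unadjusted p under 0.05), against 825 before it. Thinning also chose the cells anew and lowered those that passed the gate, to 171 to 304 members and 88 to 169 Dntt-positive cells per mouse. Depth, cell number and the change of members cannot be told apart in this loss. The count was 7 without the young male, 19 without the old male, 56 without the very old male and 44 without either middle-aged mouse. The promoters of Elane, Klf1 and Blvrb are shown because these genes were called with opposite signs in this test, and that of Ctsg because it was the granule gene called with age. They are the bases before the RefSeq start (GRCm38.p6), cut at an earlier GENCODE start for Elane and Klf1, with capitals at motif matches.
Elane: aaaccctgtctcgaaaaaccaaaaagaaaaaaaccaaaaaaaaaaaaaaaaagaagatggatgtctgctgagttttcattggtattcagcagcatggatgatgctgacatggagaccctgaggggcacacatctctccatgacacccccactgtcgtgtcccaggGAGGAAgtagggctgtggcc
Ctsg: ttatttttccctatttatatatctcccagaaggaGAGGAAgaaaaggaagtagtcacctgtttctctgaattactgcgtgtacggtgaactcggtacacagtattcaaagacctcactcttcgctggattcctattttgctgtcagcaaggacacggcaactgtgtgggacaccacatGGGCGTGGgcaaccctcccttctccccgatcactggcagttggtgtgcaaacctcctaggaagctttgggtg
Klf1: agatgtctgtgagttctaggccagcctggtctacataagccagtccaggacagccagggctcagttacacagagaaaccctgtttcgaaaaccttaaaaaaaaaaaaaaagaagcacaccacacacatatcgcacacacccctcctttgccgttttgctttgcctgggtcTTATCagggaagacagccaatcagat
Blvrb: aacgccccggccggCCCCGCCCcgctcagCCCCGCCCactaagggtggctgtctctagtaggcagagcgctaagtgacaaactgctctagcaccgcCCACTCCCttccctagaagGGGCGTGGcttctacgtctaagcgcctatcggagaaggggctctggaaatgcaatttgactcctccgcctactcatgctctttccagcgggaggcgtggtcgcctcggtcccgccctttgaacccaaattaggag

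These windows lie at chr10:79886062-79886246 (plus strand, Elane), chr14:56102575-56102824 (minus, Ctsg), chr8:84901732-84901927 (plus, Klf1) and chr7:27447728-27447977 (plus, Blvrb), and none overlaps an annotated exon. Motifs searched on both strands were GATAA for GATA factors, TTGCNNAA for C/EBP factors, CCNCNCCC for KLF factors and GAGGAA for PU.1. The windows of Elane and Ctsg each held 1 GAGGAA, present in 17.6% and 23.3% of 32851 promoters cut to the same lengths. Klf1 held 1 GATAA, present in 19.1%. Blvrb held 4 and Ctsg 1 CCNCNCCC, present in 45.9%, and none of the 4 held TTGCNNAA. A match is a string of letters and no evidence of binding.

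Mpo and Elane had a more positive age effect in members. Mpo was at 1154 and 1229 unscaled CPM in members of young mice, 1521 and 1582 in the old and 1243 and 1445 in the very old. In Dntt-positive cells it was at 697 and 580 in the young, 638 and 655 in the old and 429 and 433 in the very old. The interaction was 0.55 ± 0.0692 (adjusted p = 4.76e-06), and 0.35 after thinning (adjusted p = 0.977). Elane was at 149 and 148 in young members and 217 to 539 in older ones, against 59.3 and 52.8 in young and 12.5 to 79.7 in older Dntt-positive cells (1.76 ± 0.188, adjusted p = 1.66e-07), and 0.74 after thinning. Of 22 granulocyte-monocyte genes 20 were positive, with a median of 0.29. Ly6c2, a myeloid surface protein, had an interaction of 1.86 ± 0.279, Hp, haptoglobin, of 1.56 ± 0.343, and Pf4 of 3.36 ± 0.480. None of them was called after thinning, where Pf4 was at -0.00107. Over 13 alternatives Ly6c2 ranged from 0.12 to 2.03, and Hp lost its call in 6. In Dntt-positive cells Pf4 was at 89.7 and 25.6 unscaled CPM in the young male and female, 9.85 and 21.1 in the old, and 6.54 and 74.2 in the very old. The Pf4 interaction thus also rests on the comparison cells, in which the young male was highest and the very old female next.

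Klf1 and Blvrb had a more negative age effect in members. Klf1 was at 45.8 and 42.1 unscaled CPM in young members and 13.1, 15.1, 43.2 and 17.8 in the old male and female and very old male and female. In Dntt-positive cells it was at 14.3 and 16.7 in the young and 11.1, 16.2, 24.6 and 13.9 in the same older mice (-1.15 ± 0.202, adjusted p = 0.00144). The very old male was as high as the young in members. Blvrb had an interaction of -1.04 ± 0.111 (adjusted p = 1.66e-07), and the metallothioneins Mt1 and Mt2 and Asns, asparagine synthetase, of -0.88, -1.50 and -1.49. Mt1 was at 115 and 105 unscaled CPM in young members and 70.2 to 128 in older ones. In Dntt-positive cells Mt1 rose from 29.1 and 42.8 to 47.4 to 67.6, so its interaction also rests on the comparison cells. Asns fell from 33.7 and 40.1 in young members to 16.6 to 40.8, with overlap. In Dntt-positive cells Asns was at 7.79 and 15.4 in the young and higher in every older mouse. Mt2 overlapped between young and older mice in both populations. After thinning Klf1, Blvrb, Mt1 and Asns had the opposite sign (0.18, 0.20, 0.52 and 0.68), with as few as 3 Klf1 UMIs in all members of a mouse.

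**Figure D5:**
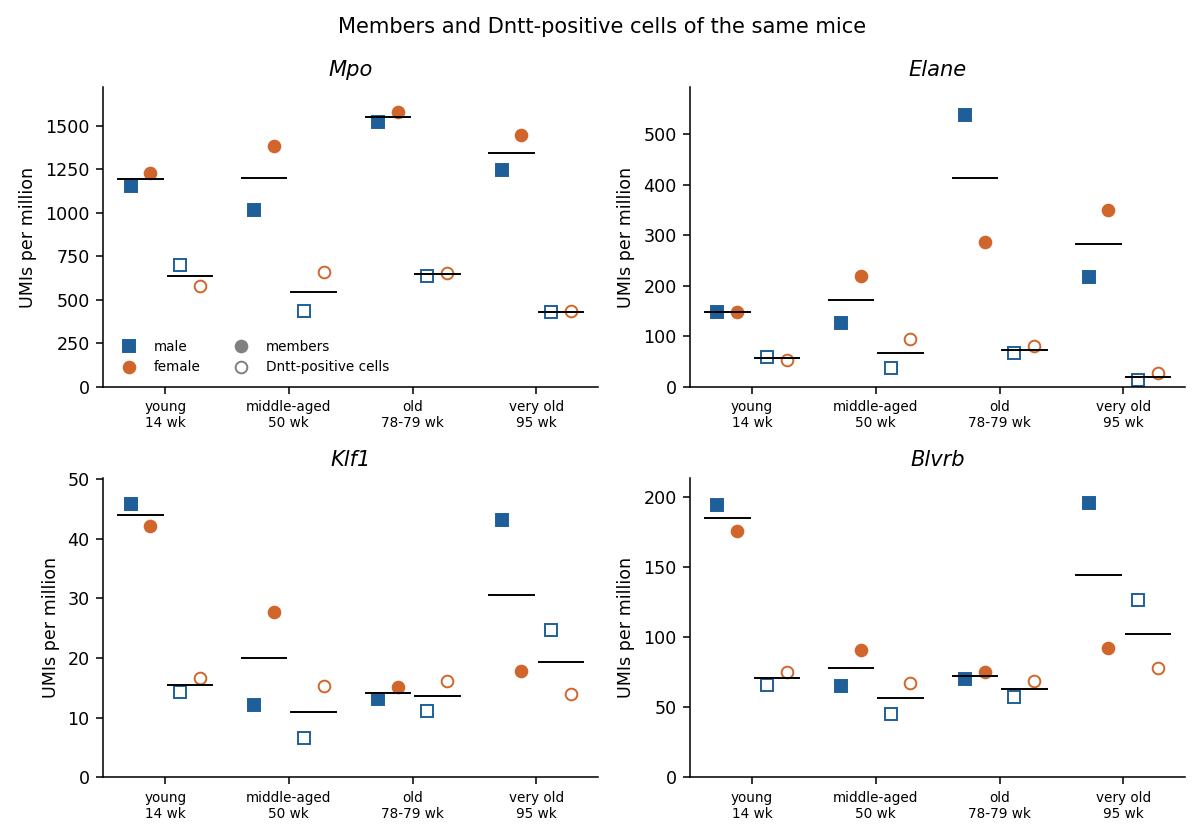
Unscaled CPM of Mpo, Elane, Klf1 and Blvrb in members (filled) and Dntt-positive cells (open) of the same mice by age; each point is 1 mouse (squares male, circles female), bars are means of 2 mice and axes start at 0. Mpo in members lay between 1017 and 1582 in every mouse and in Dntt-positive cells between 429 and 697.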

How the data were processed

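Single-cell libraries of Lineage- c-Kit+ bone marrow of 8 mice were analysed. Reads were aligned to mm10 (per the labels) in Cell Ranger. The values deposited by the authors are raw counts of UMIs for each gene in each barcode and were not normalized. The file headers name version 6.0.0, which differs from that in the study's methods, and the sources also differ on the capture kit's version. Gene identifiers were matched to GENCODE vM21 (32235 of 32285).

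Cells were filtered and chosen by the rule given at the start. No cluster was formed and no doublet caller was run. Member UMIs were summed per mouse, filtered by expression (filterByExpr), TMM-scaled and tested in edgeR 4.0.16 (quasi-likelihood test, age group and sex, all 8 mice, R 4.3.3). Benjamini-Hochberg adjustment ran over 11252 genes, genes of the rule included, and calls were counted over the 11250 that the rule did not use. The interaction used 16 sums with the mouse as a block. Single values per mouse were compared by exact permutation tests (SciPy 1.17.1). The cell-level test in the study's methods was not used, since cells are not replicates.

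Named genes were those called with a mean of 20 CPM or more whose groups did not overlap (up to 12 each way for older against young, 5 each way for middle-aged against young and very old against old), up to 10 for sex by p, and 5 each way for the interaction without the overlap rule. Predicted and Rik genes were left out, and members of the gene lists could be named. The members and lists were chosen with earlier results of these data known. On simulated data, 98% of 100 2-fold changes were recovered for older against young (11191 genes) and 76% for the interaction (11180 genes). There, 8 and 6 unchanged genes were called. The changed genes were drawn from those with many UMIs in both populations, and all genes had the same spread. The choice of cells by the rule was not simulated. These shares therefore do not cover low genes such as Nupr1, or genes carried by few cells such as Pf4. Alternatives included DESeq2 1.42.0, RLE scaling, thinning, other filters and each mouse left out. Mice are separate animals.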

Additional observations from a re-analysis of the deposited data

Results flagged for a closer look

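The age effect (old and very old against young) differed between members and Dntt-positive cells by the interaction test for 10 named genes. It was more positive in members for Pf4 (3.36 on the log2 scale), Ly6c2 (1.86), Elane (1.76), Hp (1.56) and Mpo (0.55). It was more negative in members for Mt2 (-1.50), Asns (-1.49), Klf1 (-1.15), Blvrb (-1.04) and Mt1 (-0.88). Of these, 9 were tested after thinning to 5000 UMIs (Mt2 was not) and none was called, and Pf4, Asns, Klf1, Blvrb and Mt1 then changed sign. In each mouse 5 members held 41.6% to 70.6% of the UMIs of Klf1, 53.1% to 81.0% of those of Mt2, 37.7% to 69.4% of those of Ly6c2 and 30.7% to 85.4% of those of Pf4. In 12 sets of 4 older mice, no mouse stood apart by Dixon's test.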

How the results depend on the processing

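Genes called between old and very old and young members numbered 23 in the main analysis and 7 with DESeq2, 159 without the filter on low counts, 2 without the sex term, 62 without the very old mice, 0 with age in weeks as a slope (edgeR, 439 at an unadjusted p under 0.05), 11 after thinning, 11 with Flt3 and Cd34 at 2 or more UMIs, 6 with cells under 5% mt- UMIs, 6 without members holding lineage UMIs, 5 for the old mice alone and 0 to 87 with 1 mouse left out. The middle-aged comparison (63) gave 33 with DESeq2 (29 higher, 4 lower), 533 without the filter, 113 without the very old mice, 61 after thinning, 236 with Flt3 and Cd34 at 2 or more UMIs, 16 with cells under 5% mt- UMIs, 182 without the 5% of members with most UMIs, 27 without members with Mki67 or Top2a UMIs, 100 with the same number of members per mouse and 0 to 326 with 1 mouse left out. Very old against old (19) gave 45 with DESeq2 (41 higher, 4 lower), 398 without the filter, 3 after thinning, 5 with cells under 5% mt- UMIs, 9 without members with lineage UMIs, 88 without members with Mki67 or Top2a UMIs, 70 with the same number of members per mouse and 4 to 143. The sex comparison (20) gave 142 without the filter, 37 after thinning, 31 to 52 with 4 other choices of members and 9 to 27. The interaction (29) gave 68 without the filter, 0 after thinning, 51 without the very old mice and 7 to 56. The difference in member share ranged from -2.02 to 0.0689 percentage points with 1 mouse left out, that in members per Dntt-positive cell from 0.172 to 0.330 (0.0237 with Flt3 and Cd34 at 2 or more UMIs, 0.0831 without members with lineage UMIs, -0.0999 with cells under 5% mt- UMIs), and that in members with Mki67 or Top2a from -2.90 to 2.84 (main -0.0514; 2.80 without the young female; 0.953 after thinning). Of the named interaction genes, Pf4 (-0.00107), Asns (0.679), Klf1 (0.176), Blvrb (0.199) and Mt1 (0.518) reversed after thinning. Over the alternatives, 121 of 196 values of 9 genes in older against young kept their side of the threshold, 66 lost it, 9 gained it and 0 reversed. The cause was not tested. Splits of calls by direction also moved, with 15 of 23 higher in the main analysis and 19 of 62 without the very old mice. Chosen after seeing the data were each older age alone, the middle-aged and sex comparisons without the very old mice, and the interaction without the very old or middle-aged mice or with RLE scaling.

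No paired analysis was possible because the labels give mice of different ages no shared replicate numbers. The sex term stands for the 1 male and 1 female of each age, and the interaction, which compares cells of the same mouse, had the mouse as a block. With 2 mice per age and 268 to 370 members per mouse, low genes rest on few UMIs.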
